A study of Mus musculus with 18 samples.

Results

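The 100 genes described here were those whose RNA stood highest on day 1 of a 3-day course of RANKL in mouse bone marrow-derived macrophages (BMDMs), above both the cells before RANKL and the cells on day 3. They were chosen by their measured levels. Counts were scaled to CPM (the count divided by the library total, times 1000000) and averaged over the 3 libraries of each label and day. Of 34745 genes in the table, 10052 had a mean of at least 5 CPM on day 1 under both labels. Each of these was given a score, the lowest of the 4 log2 ratios of day 1 to day 0 and of day 1 to day 3 under both labels, with 1 CPM added to every mean. With 1 CPM added to each mean, a score of 1 stands for day 1 at least double days 0 and 3 within each label. The score was above 0 in 702 genes, 6.98% of those past the minimum, and the 100 with the highest scores are the members. The number above 0 depended on the scaling. With trimmed-mean (TMM) scaling of the libraries it was 1309 (12.9%), and 84 of the members were still among the 100 highest. Without the 5 libraries singled out below by their titles it was 990 (9.76%). All 100 scored above 0, from 0.35 to 1.77 with a median of 0.60, where the median over the 10052 genes was -0.39.

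The cells came from the bone marrow of C57BL/6 mice with a knockout of Zmat1 (KO), a zinc finger gene, and from their wild-type littermates (WT), 4 to 8 weeks old by the study's methods. They were grown in M-CSF (50 ng/mL), for 3 days by the series' design text and 4 days by the methods, and were taken then (day 0) or after 1 or 3 days of M-CSF with RANKL (100 ng/mL). Each of the 6 groups of label and day had 3 libraries, 18 in all. The sources used here do not give the deleted part of Zmat1, whether marrow was pooled, or how many mice stood behind a group.

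RANKL is the cytokine that turns macrophage precursors into osteoclasts, the cells that resorb bone. It binds RANK on the cell surface and signals through NF-kB and AP-1 to NFATc1, the transcription factor that drives the osteoclast genes, while M-CSF keeps the precursors alive. Macrophages at the same time carry receptors, complement and antioxidant enzymes of innate immunity, and C3, Il2rg and Nqo1 are members of these kinds. Osteoclast genes such as Acp5 and Ctsk are highest late in such a course.

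Library totals ran from 13789775 to 17559958 counts. Replicate libraries differed from each other by more than counting error, with a chi-square per degree of freedom of 17.9 to 164, so none was a second copy of another. Zmat1 itself had 32 to 91 counts in the 9 WT libraries and 49 to 99 in the 9 KO libraries, and the overlapping ranges do not check the labels, so WT and KO name libraries as labelled. A feature of the titles touches every result on day 1. In all, 13 titles are written with 1 hyphen and 5 with 2, and the double-hyphen titles belong to WT day 0 replicate 1, KO day 0 replicate 2, 1 of the day 1 WT libraries, and KO day 1 replicates 1 and 2. WT day 1 thus has 2 libraries numbered 1, 1 of each style, and 1 numbered 2. On day 1 the double-hyphen libraries carried lower summed levels of the 22 mitosis genes listed (219 to 394 CPM against 1132 to 1648 in the single-hyphen libraries) and of 21 DNA replication genes (427 to 513 against 1129 to 1974). Their stromal and osteoblast marker sum was 315 to 4041 CPM against 3268 to 11130. What the style of a title marks is not given. Since 3 of the 6 day 1 libraries, 2 of the 6 on day 0 and none on day 3 have it, style and day cannot be told apart in part of what chose the members. The score and the counts of edgeR calls are therefore also given without these 5 libraries, where KO day 1 is 1 library whose spread was taken from the other groups.

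In the sentences that follow, values stand in a fixed order: on day 0, WT replicate 1 (double hyphen), 2 and 3 and KO replicate 1, 2 (double hyphen) and 3; on day 1, WT replicate 1, the double-hyphen replicate 1 and replicate 2, and KO replicate 1 and 2 (both double hyphen) and 3; on day 3, replicates 1 to 3.

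The mean of log2(CPM + 1) over the 100 members was 5.73 to 6.06 in the WT and 5.90 to 6.04 in the KO libraries of day 1. It was 4.44 to 5.34 and 4.89 to 5.41 on day 0, and 4.42 to 4.88 and 4.57 to 5.15 on day 3. Day 1 held the single highest library of 99 members. In 59 it was a double-hyphen library, in 41 of these the double-hyphen WT library. The rule bears on these counts, and they were not taken over all genes. In 16 members all 6 day 1 libraries stood above all 12 others, as did 0.209% of the 10052 genes past the minimum. Among these were Il2rg, Ceacam19, Zmynd15, Cxcl16, 1700112E06Rik, Rnf149, Srxn1, Ptgir, Htr2b, Alas1, Itgb2, Ampd3, Mag, Ptgr1 and Naip2. Within WT alone the day 1 libraries stood above the others in 30 members and within KO alone in 40 (1.0% and 1.06% of the 10052 genes). In the remaining members the groups overlapped in at least 1 library.

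**Figure D1:**
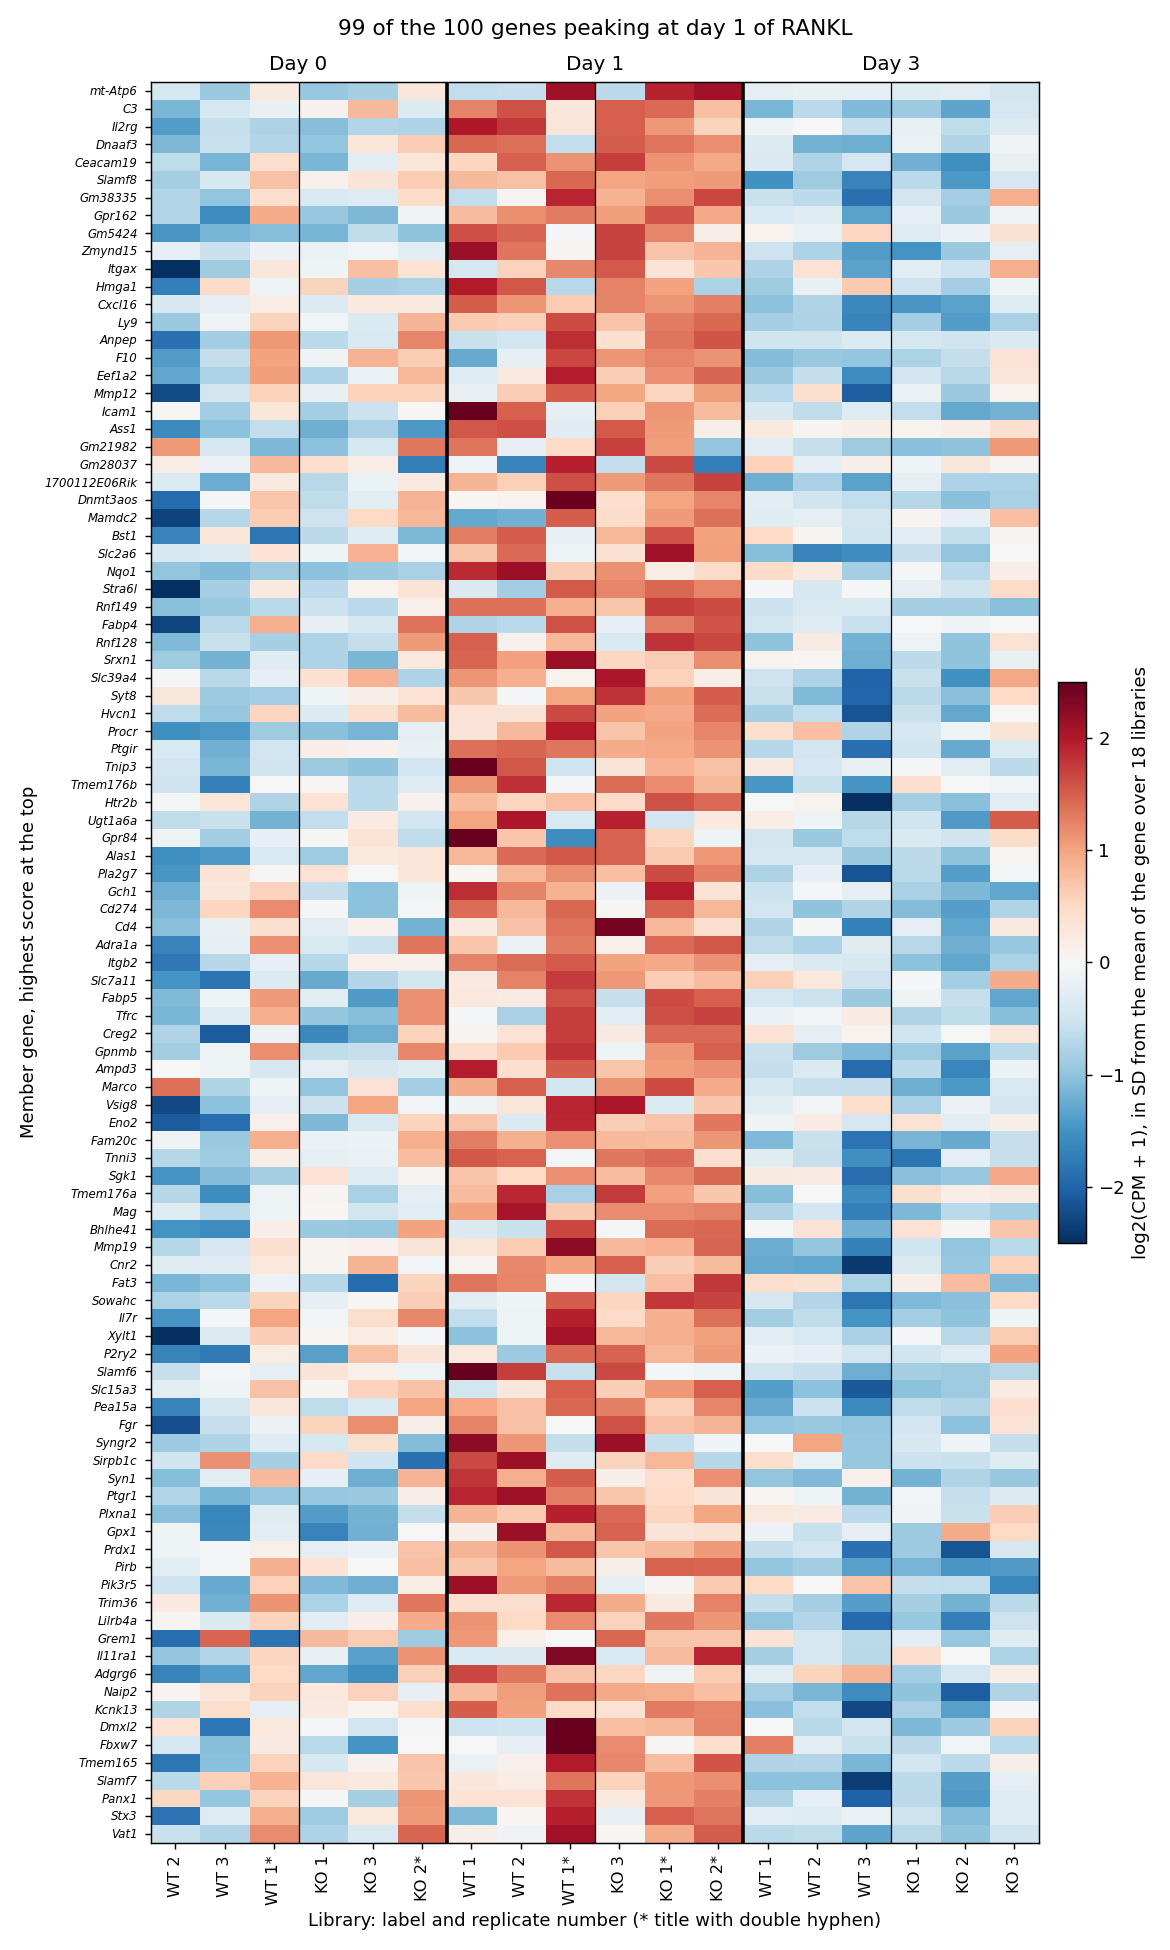
Level of each of 99 of the 100 members in each of the 18 libraries, as log2(CPM + 1) in standard deviations from the mean of that gene, with libraries ordered by day, label and title style (asterisk, double hyphen) and genes by score. The day 1 block is red for most members, the double-hyphen columns of day 0 are redder than the other columns of that day for many genes, and day 3 is blue or pale for most.

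The rule's edge lay in a dense part of the scale. The last 5 members were Tmem165 and Slamf7 (both 0.37), Panx1 (0.36), Stx3 (0.36) and Vat1 (0.35), and the first 5 genes outside were Zdhhc18 (0.34), Maoa and Ube2l3 (both 0.33), Lair1 (0.33) and Tenm4 (0.32). By edgeR's quasi-likelihood test, with p-values adjusted over 14241 genes by Benjamini-Hochberg, day 1 was above day 0 at an adjusted p under 0.05 in 14 members in WT (1.44% of all genes tested) and in 0 in KO (0.0211%). Unadjusted p was under 0.05 in 48 and 35 members. Day 1 was above day 3 in 66 members in WT (19.3% of all genes) and 58 in KO (15.5%). Since these contrasts chose the members, the counts describe how large the peak was beside the spread of 3 libraries and are read no further. Among the 14 were C3, Il2rg, Gm5424, Ass1, Nqo1, Rnf149, Srxn1, Procr, Ptgir, Tnip3, Alas1, Itgb2 and Ptgr1. The median log2 fold change over the members was 0.93 from day 0 to day 1 in WT and 0.78 in KO, against 1.60 and 1.41 between day 3 and day 1. In this order (day 0 in WT and KO, then day 3), a covariate for title style gave 30, 3, 68 and 40 members, a block for the replicate number 4, 0, 56 and 54, and the fit without the double-hyphen libraries 29, 0, 58 and 18.

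Among the members were cytokine-receptor chains, a complement protein and a chemokine. C3 is the central protein of the complement cascade (chr17:57203970-57228136, minus strand, score 1.37). In WT it was at 110.0, 41.9 and 84.2 CPM on day 0, 440.4, 173 and 627 on day 1 and 41.9, 67.6 and 43.9 on day 3. In KO it stood at 145, 93.8 and 291 CPM on day 0, 529.6, 275 and 567 on day 1 and 53.3, 35.6 and 85.5 on day 3. WT day 1 did not overlap the other WT days, while 1 KO day 0 library (replicate 3) reached above the lowest KO library of day 1. Il2rg encodes the chain shared by several interleukin receptors (chrX:101264378-101268255, minus strand, score 1.35). Its WT libraries were at 66.8, 44.4 and 76.0 CPM on day 0, 399, 134 and 346 on day 1 and 102, 109 and 76.1 on day 3. The KO libraries were at 55.1, 66.9 and 68.9 CPM on day 0, 221, 158 and 288 on day 1 and 98.0, 73.0 and 88.7 on day 3. All 6 day 1 libraries lay above all others, although the single-hyphen ones (288 to 399 CPM) lay above the double-hyphen ones (134 to 221). Il7r, a receptor chain that pairs with the product of Il2rg, was the reverse. It was at 63.2, 4.33 and 22.4 CPM on day 0, 11.8, 171 and 20.01 on day 1 and 8.94, 11.7 and 4.25 on day 3 in WT. Its KO values were 21.1, 78.8 and 36.4 CPM on day 0, 57.4, 94.5 and 37.6 on day 1 and 9.08, 7.64 and 20.5 on day 3. On days 0 and 1 a double-hyphen library was the highest under each label.

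Cxcl16 is a membrane-bound chemokine that also takes up oxidized lipid (chr11:70453983-70459984, minus strand, score 0.89). It was at 104, 75.4 and 82.8 CPM on day 0, 213, 133 and 171 on day 1 and 53.5, 62.6 and 38.7 on day 3 in WT. The KO libraries held 77.6, 107 and 107 CPM on day 0, 171, 186 and 185 on day 1 and 42.2, 45.0 and 78.6 on day 3. No day 1 library overlapped the other days. Its opposite-strand neighbour Zmynd15, a MYND-type zinc finger gene (chr11:70459433-70466202, plus strand, score 0.98), overlaps it at the 5′ end, and without a stated strand setting reads of the pair cannot be told apart. Zmynd15 was at 8.81, 8.30 and 6.91 CPM on day 0, 31.3, 10.04 and 20.4 on day 1 and 7.13, 6.07 and 4.12 on day 3 in WT. Its KO values were 8.76, 8.26 and 9.21 CPM on day 0, 14.4, 15.5 and 24.7 on day 1 and 3.84, 5.51 and 8.36 on day 3. The day 1 libraries again stood apart, by less than 1 CPM at the closest.

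**Figure D2:**
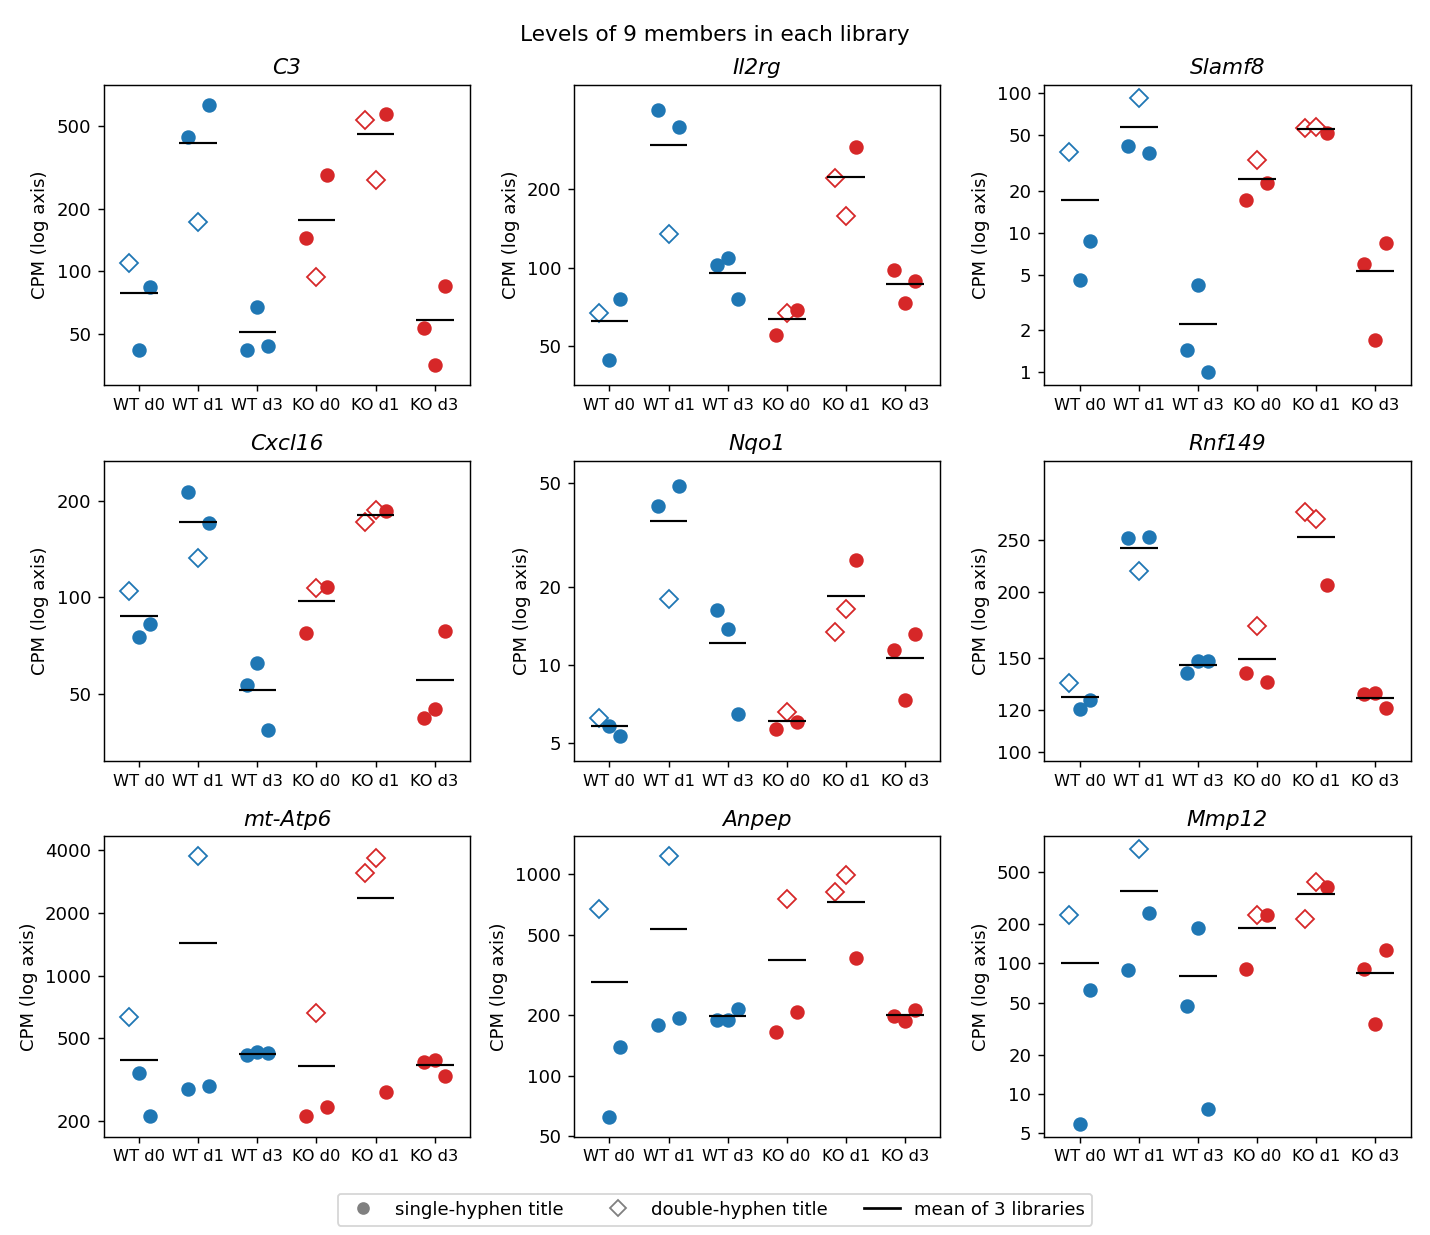
CPM on a log axis of 9 members in each library by label and day, with single-hyphen titles as filled circles, double-hyphen titles as open diamonds and the mean of 3 libraries as a line. Il2rg, Cxcl16 and Rnf149 separate day 1 from both other days in every library, while the day 1 means of mt-Atp6 and Anpep are set by the diamonds, at 3122 to 3734 CPM of mt-Atp6 against 277 to 296 in the circles of that day.

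Another class was adhesion and contact between immune cells. The SLAM receptors, which bind each other between leukocytes, gave 4 members, all on chromosome 1, namely Slamf8, Ly9, Slamf6 and Slamf7. Slamf8 (chr1:172581758-172590568, minus strand, score 1.15) was at 38.0, 4.54 and 8.67 CPM on day 0, 41.5, 91.3 and 37.3 on day 1 and 1.45, 4.25 and 1.01 on day 3 in WT. Under the KO label it was at 17.1, 33.2 and 22.6 CPM on day 0, 56.2, 57.5 and 51.6 on day 1 and 5.93, 1.70 and 8.36 on day 3. KO day 1 stood apart, whereas the double-hyphen WT library of day 0 (38.0 CPM) lay within the day 1 range and above the lowest WT library of day 1. Ly9 (chr1:171588624-171607410, minus strand, score 0.89) was far more abundant per length, at 159.7 against 17.9 FPKM on day 1 (mean of 6 libraries, fragments per kilobase of transcript scaled to the library). Its WT libraries were at 582, 218 and 382 CPM on day 0, 620.3, 1168 and 593 on day 1 and 235, 244 and 136 on day 3. Those of KO were at 385, 703 and 317 CPM on day 0, 938, 1024 and 641 on day 1 and 230.3, 161 and 237 on day 3. On each of days 0 and 1 the double-hyphen libraries were its highest. Slamf7, 25.0 kb from Ly9, was at 131 to 362 CPM on day 1, 61.8 to 241 on day 0 and 13.8 to 91.4 on day 3. Slamf6 went the other way with title style, at 11.1 to 18.3 CPM in the single-hyphen libraries of day 1 and 2.65 to 3.87 in the double-hyphen ones.

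The integrins and their ligand were represented by Itgax, Itgb2 and Icam1. Itgb2, the beta chain common to the leukocyte integrins (chr10:77530252-77565708, plus strand), was at 1100.3 to 1352 CPM in the 6 day 1 libraries and 415 to 823 in the other 12, without overlap. Itgax, the alpha chain CD11c that pairs with it (chr7:128129547-128150657, plus strand, score 0.95), varied far more. In WT it was at 48.8, 1.08 and 12.9 CPM on day 0, 21.4, 136 and 67.7 on day 1 and 14.7, 53.5 and 7.49 on day 3. In KO it stood at 31.2, 51.6 and 82.8 CPM on day 0, 52.5, 75.1 and 195 on day 1 and 25.8, 19.7 and 98.4 on day 3. The spread within a group was wide, and day 1 overlapped both other days under each label. Icam1, the adhesion molecule these integrins bind (chr9:21015960-21028797, plus strand, score 0.80), was at 111, 98.6 and 66.4 CPM on day 0, 301, 88.5 and 188 on day 1 and 81.3, 73.6 and 84.1 on day 3 in WT. Its KO libraries were at 66.8, 98.2 and 76.6 CPM on day 0, 159, 138 and 126 on day 1 and 74.1, 55.1 and 57.6 on day 3. KO day 1 stood apart and the double-hyphen WT library of day 1, at 88.5 CPM, fell within the WT day 0 range. Ceacam19, a relative of the carcinoembryonic antigen adhesion molecules (chr7:19875742-19887965, minus strand, score 1.17), stayed under 10 CPM in every library. In WT it was at 4.02, 1.73 and 1.02 CPM on day 0, 4.33, 6.45 and 8.13 on day 1 and 2.17, 1.55 and 2.09 on day 3. The KO libraries held 1.03, 3.63 and 2.32 CPM on day 0, 6.38, 5.69 and 9.43 on day 1 and 0.977, 0.636 and 2.52 on day 3. All day 1 libraries lay above the rest, the lowest by 0.31 CPM.

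The promoter windows of Slamf8 and Icam1 are shown because both hold a match to the kB motif that NF-kB, the factor downstream of RANK, recognises. The sequences are RefSeq's for GRCm38.p6, 250 bases before to 50 after a transcription start, 5′ to 3′ on the gene's strand, at chr1:172590519-172590818, minus strand, and chr9:21015690-21015989, plus strand. Capitals mark matches to GGANTTTCC on either strand.
Slamf8: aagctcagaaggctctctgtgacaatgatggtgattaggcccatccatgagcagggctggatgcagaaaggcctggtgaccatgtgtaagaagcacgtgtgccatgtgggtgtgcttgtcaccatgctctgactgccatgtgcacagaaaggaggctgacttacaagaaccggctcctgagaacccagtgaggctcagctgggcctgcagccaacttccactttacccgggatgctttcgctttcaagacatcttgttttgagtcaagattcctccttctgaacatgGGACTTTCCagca
Icam1: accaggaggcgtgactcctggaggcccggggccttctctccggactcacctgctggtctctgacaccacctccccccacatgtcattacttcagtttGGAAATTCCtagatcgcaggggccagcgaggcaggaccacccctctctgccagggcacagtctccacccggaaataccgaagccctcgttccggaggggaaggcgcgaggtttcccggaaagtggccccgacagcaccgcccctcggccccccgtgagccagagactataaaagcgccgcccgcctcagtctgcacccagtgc
Slamf8's match lies just downstream of the start and Icam1's upstream of it. A match says that the letters are there and is no evidence of binding in these cells. The window of Slamf8 also holds an AP-1 motif match, TGAGTCA, which the capitals do not mark.

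Secreted and surface proteases and clotting factors made a further class. Mmp12, macrophage elastase (chr9:7344381-7369499, plus strand, score 0.86), was at 233, 5.92 and 62.6 CPM on day 0, 89.0, 744 and 243 on day 1 and 47.4, 186 and 7.63 on day 3 in WT. Its KO values were 89.6, 233 and 234 CPM on day 0, 219, 413 and 384 on day 1 and 90.3, 34.2 and 126 on day 3. The WT day 1 mean was 359 ± 343 CPM (SD, n = 3), the double-hyphen library being the highest of the 3. Anpep, the cell-surface aminopeptidase N (chr7:79821803-79861059, minus strand, score 0.88), was at 668, 62.3 and 139 CPM on day 0, 178, 1227 and 192 on day 1 and 189, 189 and 214 on day 3 in WT. Under the KO label it was at 164, 751 and 206 CPM on day 0, 814, 985 and 384 on day 1 and 198, 187 and 211 on day 3. The 5 double-hyphen libraries held its 5 highest values, and the single-hyphen WT libraries of day 1, at 178 and 192 CPM, were near the WT libraries of day 3. F10, coagulation factor X (chr8:13037308-13056676, plus strand, score 0.87), was at 25.7, 1.23 and 4.07 CPM on day 0, 1.54, 51.4 and 6.25 on day 1 and 2.06, 2.56 and 2.497 on day 3 in WT. Its KO libraries were at 7.52, 16.8 and 22.3 CPM on day 0, 31.9, 29.2 and 28.4 on day 1 and 3.14, 4.03 and 12.8 on day 3. KO day 1 stood apart here in both styles, at 28.4 to 31.9 CPM, while in WT only the double-hyphen library of day 1 exceeded the highest library of day 0. Mmp19, a matrix metalloproteinase, was at 88.6 to 187 CPM on day 1 and 40.6 to 92.03 on the other days. Procr, the receptor for protein C, was at 14.1 to 33.99 CPM on day 1 and 4.91 to 17.7 on the others.

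Ass1, argininosuccinate synthase of the arginine cycle (chr2:31470207-31520672, plus strand, score 0.79), peaked together with its processed pseudogene Gm5424 (chr10:62071015-62072609, plus strand, score 1.05). The pair is closely similar in sequence, so reads counted to one may come from the other, and both are uncertain for that reason. Ass1 was at 1.69, 0.361 and 1.02 CPM on day 0, 10.9, 2.31 and 11.4 on day 1 and 3.87, 3.30 and 3.51 on day 3 in WT. In KO it stood at 0.759, 0.528 and 1.33 CPM on day 0, 7.52, 3.54 and 10.8 on day 1 and 3.35, 3.61 and 4.43 on day 3. Gm5424 had the same order of days, with 1.48, 0.866 and 1.29 CPM on day 0, 16.3, 4.27 and 14.45 on day 1 and 4.71, 3.77 and 6.82 on day 3 in WT. In KO it had 1.31, 1.58 and 2.39 CPM on day 0, 12.1, 4.93 and 17.3 on day 1 and 3.21, 3.82 and 6.03 on day 3. In both genes the day 1 single-hyphen libraries lay above the double-hyphen ones, and day 3 stood above day 0 in all libraries. Hmga1 is a chromatin architectural protein (chr17:27556620-27563674, plus strand, score 0.90), and its reads may likewise be shared with other loci. Hmga1 was at 46.7, 15.4 and 70.5 CPM on day 0, 195, 31.6 and 146 on day 1 and 27.6, 44.6 and 79.0 on day 3 in WT. The KO libraries held 74.3, 29.3 and 28.8 CPM on day 0, 101.3, 29.3 and 119 on day 1 and 35.6, 28.4 and 47.1 on day 3. Its double-hyphen libraries of day 1 numbered KO 2 and WT 1, at 29.3 and 31.6 CPM, fell within the range of day 0. Eef1a2, a translation elongation factor best known from nerve and muscle (chr2:181147653-181157014, minus strand, score 0.87), reached 10.7 CPM at most. In WT it was at 5.57, 0.505 and 1.08 CPM on day 0, 1.79, 10.7 and 2.99 on day 1 and 0.906, 1.35 and 0.27 on day 3. Its KO values were 1.10, 4.75 and 2.11 CPM on day 0, 6.04, 7.58 and 4.06 on day 1 and 1.54, 1.202 and 3.14 on day 3. The highest library of each label on days 0 and 1 had a double-hyphen title.

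Oxidative stress and metallothionein genes were the pathway list with the most members, 3 of the 13 listed genes past the minimum (23.1%, against 0.995% of all genes past it). The list as a whole did not peak on day 1. Its median score was -0.04, with 4 of the 13 above 0, and Mt1 (-0.80), Hmox1 (-0.75) and Sod2 (-0.62) were among those below 0. Nqo1, the quinone reductase (chr8:107388225-107403206, minus strand), was at 6.27, 5.84 and 5.35 CPM on day 0, 41.0, 17.9 and 48.8 on day 1 and 16.3, 13.8 and 6.48 on day 3 in WT. Under the KO label it was at 5.66, 6.60 and 6.04 CPM on day 0, 13.4, 16.4 and 25.4 on day 1 and 11.4, 7.35 and 13.2 on day 3. Day 1 did not overlap day 0 or day 3 within either label. Srxn1, sulfiredoxin, was at 311 to 588 CPM on day 1 and 158 to 281 elsewhere, and Prdx1, the peroxiredoxin it repairs, at 1694 to 2412 and 521 to 1704. Prdx1 was the third most abundant member per length (475 FPKM). Of the related enzymes outside that list, Ptgr1, a reductase of lipid aldehydes, was at 80.3 to 154 CPM on day 1 and 46.2 to 75.8 elsewhere, and Gpx1, glutathione peroxidase, at 285 to 1008 and 90.6 to 465. Slc7a11, which imports cystine for glutathione and belongs to the amino acid list (1 member of 16 past the minimum), was at 12.9 to 34.5 on day 1 and 2.78 to 20.3 elsewhere. Ugt1a6a, a glucuronosyltransferase, was at 26.2, 67.1 and 61.1 CPM in the single-hyphen and 7.06, 6.38 and 13.01 in the double-hyphen libraries of day 1. It shares its locus and strand with 7 other counted genes of the Ugt1a family, so its counts are uncertain.

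The windows of Srxn1 and Prdx1 are shown because each holds a pair of matches to the AP-1 motif TGANTCA, marked by capitals, and because they stand for the redox class (RefSeq, GRCm38.p6, chr2:152105274-152105573, plus strand, and chr4:116685349-116685648, plus strand).
Srxn1: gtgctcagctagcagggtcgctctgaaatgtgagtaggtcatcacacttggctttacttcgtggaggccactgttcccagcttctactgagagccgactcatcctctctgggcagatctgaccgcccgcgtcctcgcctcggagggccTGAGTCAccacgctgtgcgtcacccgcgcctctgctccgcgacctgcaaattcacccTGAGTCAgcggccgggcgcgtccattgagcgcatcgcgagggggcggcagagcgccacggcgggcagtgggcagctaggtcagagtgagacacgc
Prdx1: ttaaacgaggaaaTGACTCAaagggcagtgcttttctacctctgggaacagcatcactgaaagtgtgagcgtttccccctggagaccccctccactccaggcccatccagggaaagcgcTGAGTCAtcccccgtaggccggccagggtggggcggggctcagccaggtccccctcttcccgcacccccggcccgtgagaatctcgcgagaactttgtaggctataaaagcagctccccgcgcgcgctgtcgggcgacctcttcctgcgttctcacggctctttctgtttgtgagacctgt
The second match of Prdx1 is also part of a match to the antioxidant element TGACNNNGC read on the other strand, GCTGAGTCA. The window of Srxn1 holds a match to that element too, which the capitals do not mark.

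Several members are poorly characterised or share their position with another gene. Dnaaf3, a dynein assembly factor (chr7:4522933-4532453, minus strand, score 1.24), overlaps Tnni3, a cardiac troponin gene and also a member, on the same strand, so reads in the overlap can belong to either. Dnaaf3 was at 5.07, 3.61 and 5.89 CPM on day 0, 26.9, 5.56 and 25.7 on day 1 and 7.01, 3.44 and 3.31 on day 3 in WT. In KO it stood at 4.07, 14.8 and 11.53 CPM on day 0, 25.1, 22.0 and 28.6 on day 1 and 8.03, 5.02 and 8.55 on day 3. KO day 1 stood apart. In WT the double-hyphen library, at 5.56 CPM, lay below 1 library of day 0. Gpr162, an orphan receptor gene (chr6:124858444-124863983, minus strand, score 1.06), ends 0.71 kb from Cd4, another member. It was at 65.8, 23.8 and 13.96 CPM on day 0, 60.4, 82.3 and 75.9 on day 1 and 29.6, 30.9 and 16.2 on day 3 in WT. The KO libraries held 20.7, 35.4 and 18.4 CPM on day 0, 97.8, 66.6 and 71.1 on day 1 and 32.2, 21.1 and 35.3 on day 3. Cd4, known from T cells and present on monocytes and macrophages, was at 98.1 to 235 CPM on day 1 and 44.1 to 104 elsewhere, while Cd3e, Cd3d and Cd3g, which define T cells, were at most 0.422, 0.363 and 0.489 CPM in any library. Gm38335, a long noncoding RNA gene 5.70 kb from Fabp5 (chr3:10022311-10025539, minus strand, score 1.07), was at 3.73, 1.23 and 0.881 CPM on day 0, 1.42, 11.4 and 2.78 on day 1 and 1.51, 1.35 and 0.067 on day 3 in WT. Its KO values were 1.79, 3.83 and 1.90 CPM on day 0, 6.61, 9.60 and 5.29 on day 1 and 1.68, 1.06 and 5.47 on day 3. In all, 28 members overlap another counted gene, 10 of them on the same strand, and 20 pairs of members lie within 500 kb of each other. The same counts over all genes were not taken.

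The highest score of all belonged to mt-Atp6 (chrMT:7927-8607, plus strand, score 1.77), a subunit of the mitochondrial ATP synthase. It was at 631, 339 and 212 CPM on day 0, 286, 3734 and 296 on day 1 and 413, 429.6 and 423 on day 3 in WT. Under the KO label it was at 210.5, 664 and 232 CPM on day 0, 3122, 3661 and 277 on day 1 and 385, 395 and 331 on day 3. The 3 double-hyphen libraries of day 1 stood above all others, and the single-hyphen libraries of day 1, at 277 to 296 CPM, lay below every library of day 3. Between the double-hyphen libraries of days 0 and 1 the ratio of mean CPM was 5.41 for mt-Atp6 and 0.822 to 1.36 for the other 12 protein genes of the mitochondrial genome, which include mt-Atp8 and mt-Co3, both overlapping mt-Atp6. Without the double-hyphen libraries its score was -0.54, below 0.

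Lipid and iron handling gave Fabp4 and Fabp5, fatty acid carriers (2 of 13 listed lipid genes past the minimum), Tfrc, the transferrin receptor, and Gpnmb, a lysosomal glycoprotein of phagocytes. Fabp4 was at 110.5, 5.84 and 27.5 CPM on day 0, 25.3, 206 and 27.2 on day 1 and 32.9, 37.2 and 30.2 on day 3 in WT. On day 1 its 3 double-hyphen libraries were at 156 to 206 CPM and its single-hyphen ones at 25.3 to 42.0. Fabp5 was at 377 to 1576 CPM on day 1 and 219 to 1137 on day 0, Tfrc at 321 to 1611 and 260.0 to 1111, and in both genes the double-hyphen libraries were the highest of each of those days. On day 3 Fabp5 was at 234 to 500 CPM. Tfrc was at 492, 514 and 615 CPM on day 3 in WT, where the single-hyphen libraries of day 1 were at 525 and 321. In KO it was at 275 to 361 CPM on day 3 and 453 in the single-hyphen library of day 1. Gpnmb was second in abundance per length (1171 FPKM), and its double-hyphen libraries were likewise the highest of days 0 and 1. Alas1, the first enzyme of heme synthesis, was at 229 to 323 CPM on day 1 and 99.3 to 199.6 elsewhere, without overlap.

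Receptors and regulators of signalling completed the list. Rnf149, a membrane-bound ubiquitin ligase, was among the most even members, at 206 to 282 CPM on day 1 and 120.3 to 172 elsewhere. The G protein-coupled receptors Ptgir (prostacyclin), Htr2b (serotonin), Gpr84 (fatty acids), P2ry2 (nucleotides), Cnr2 (cannabinoids) and Adra1a (adrenaline) were all members. Ptgir stood apart on day 1 (30.8 to 39.8 against 7.42 to 21.2 CPM), as did Htr2b (8.34 to 16.1 against 0.607 to 7.72). Gpr84 was at 24.7, 1.22 and 6.67 CPM on day 1 in WT, 1 library being above 20, and at 2.16 to 5.78 outside day 1. The inhibitory receptors and ligands Pirb (326 to 637 CPM on day 1, 267 to 472 on day 0 and 146 to 197 on day 3), Lilrb4a (254 to 352, 181 to 301 and 97.1 to 171) and Cd274 (44.4 to 95.5, 24.0 to 82.0 and 20.9 to 33.96) overlapped between days 0 and 1.

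Per length, members spanned a wide range on day 1, from 0.324 FPKM for Fat3 and 0.485 for Eno2 to 2784 for mt-Atp6, and 62 of the 100 lay above the median FPKM of the 10052 genes. By annotation on GRCm38, 95 are protein coding. Chromosome 7 held 13 members and chromosome 1 held 11, more than any other. The members were not set against all genes of each chromosome, so no concentration is read from this.

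Title style was tested as a term beside the 6 groups of label and day. It was called in 50 members, all of them higher in the double-hyphen libraries, where 23.2% of all genes tested were called, 1416 higher and 1894 lower. The term was above 0 in 80 members, with a median of 0.61 on the log2 scale against -0.01 over all genes. The 5 largest were mt-Atp6 (2.85 ± 0.37, SE, adjusted p = 0.000312), Fabp4 (2.70 ± 0.27), Mamdc2 (2.45 ± 0.59), Anpep (2.39 ± 0.22) and Il7r (2.27 ± 0.46). No member was called lower by edgeR, and the lowest terms were those of Ugt1a6a (-1.52 ± 0.66, adjusted p = 0.108) and Marco (-1.19 ± 0.74, adjusted p = 0.263). Mamdc2 lost its call without the double-hyphen WT library of day 1 (a term of 1.80, adjusted p = 0.0661). DESeq2 called 52 higher and 3 lower, Ugt1a6a, Slamf6 and Sirpb1c. Because the rule averaged over styles and the styles were spread unevenly over the days, this term is not independent of how the members were chosen.

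**Figure D3:**
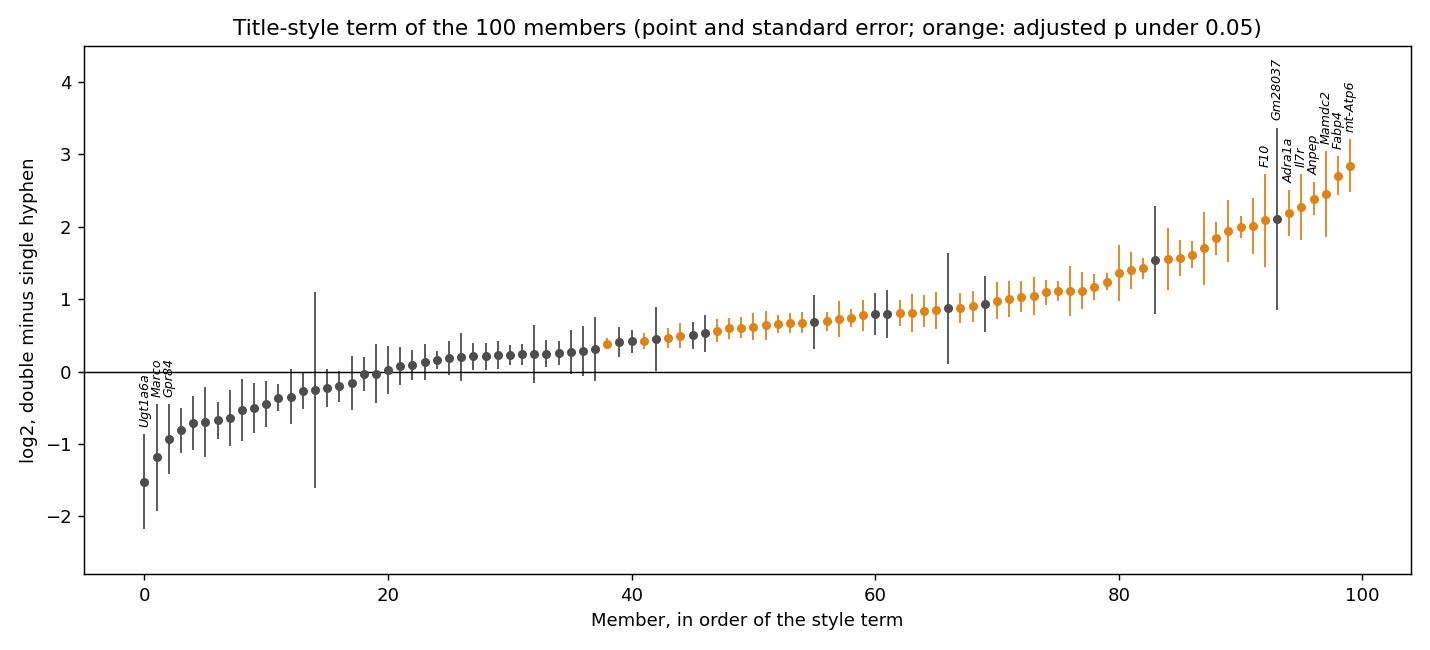
Title-style term of each member (log2, double minus single hyphen, with its standard error) in order of size, orange where the adjusted p was under 0.05. Of the 100 points 80 lie above 0, among them all 50 orange points, up to 2.85 for mt-Atp6.

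On day 1 itself, all 3 double-hyphen libraries stood above all 3 single-hyphen ones in 32 members (7.4% of the 10052 genes) and below them in 12 (40.7% of the 10052). The 12 were Il2rg, Dnaaf3, Gm5424, Zmynd15, Hmga1, Ass1, Nqo1, Slc39a4, Ugt1a6a, Gpr84, Slamf6 and Syngr2. With the score recomputed from the 13 single-hyphen libraries alone, where KO day 1 is 1 library, 83 members kept a score above 0 with a median of 0.48, and 52 members were still among the 100 highest. Of the 20 highest members 18 kept a score above 0, the exceptions being mt-Atp6 (-0.54) and Anpep (-0.089). The lowest single-hyphen scores were those of Gm28037 (-1.26), which overlaps Zbtb11 and Rpl24, and Mamdc2 (-1.10). The highest were those of Ugt1a6a (1.79), Dnaaf3 (1.75) and Il2rg (1.72). Leaving out the double-hyphen WT library of day 1 alone kept 66 members among the 100 highest and turned the score below 0 in 18 members, among the 20 highest in mt-Atp6 (-0.54), Anpep (-0.64) and F10 (-1.21). Within a style the day 1 mean was above the day 0 mean in 99 members among the single-hyphen libraries, with a median log2 ratio of 0.89, and in 97 among the double-hyphen libraries, with a median of 0.60. The libraries of each style were among those that chose the members, so these counts describe the selection and are read no further.

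**Figure D4:**
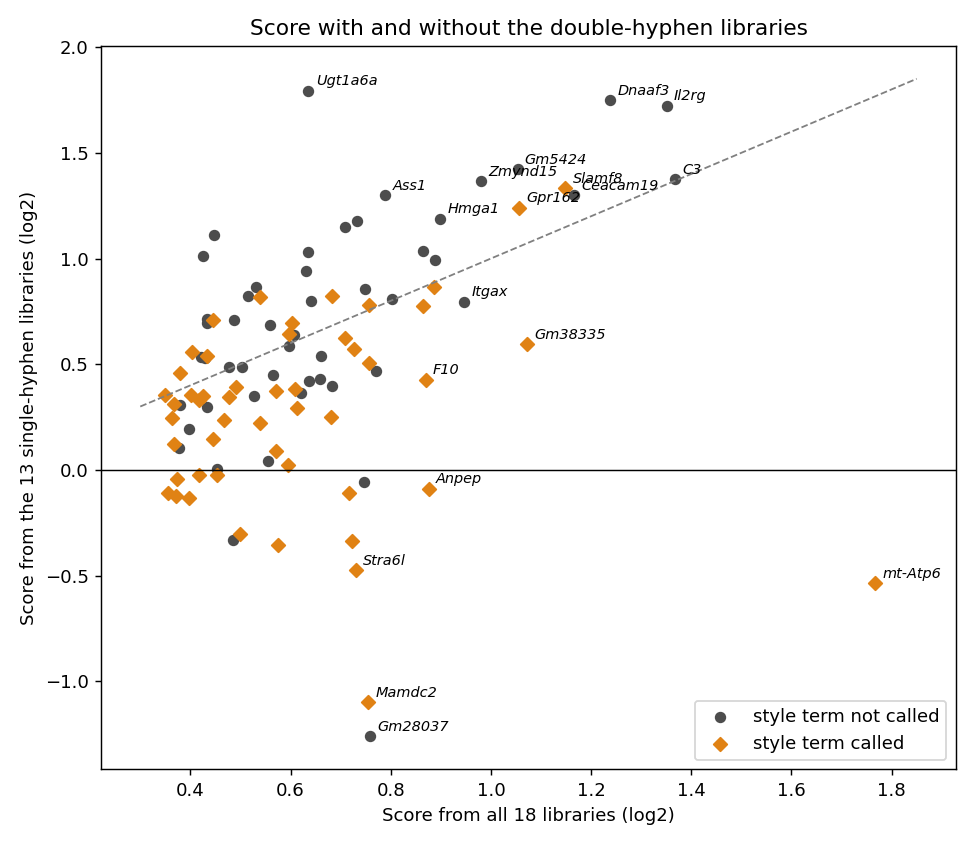
Score of each member from all 18 libraries (horizontal, log2) against the score from the 13 single-hyphen libraries (vertical, log2), orange diamonds where the style term was called, with the line of equality dashed. Above 0 lie 83 points, Il2rg and Dnaaf3 lie above the dashed line, and mt-Atp6, first on the horizontal axis, lies at -0.54.

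The rule sets day 1 against both day 0 and day 3, so a gene with a large change between those days could less easily become a member, and the comparison of day 3 with day 0 is given as a description. In WT 20 members were called, 19 lower and 1 higher on day 3, where 50.2% of all genes were called. In KO 18 were called, 17 lower and 1 higher, where 42.5% of all genes were. Nothing is read from these shares, since the rule bears on them. Without the double-hyphen libraries 20 were called in WT, 7 of them higher, and 15 in KO, 2 of them higher. By edgeR's fold changes 80 members lay below 0 in WT and 85 in KO, 78 of them under both labels, with medians of -0.63 and -0.59 and medians over all genes of -0.03 and -0.01. On column-sum CPM, which lacks the TMM scaling of those folds, the day 3 mean lay below the day 0 mean under both labels in 60 members and above it under both in 21, against 13 above under both by the folds. The medians rested in part on single libraries. In WT the median was -0.20, with 40 members above 0, without the double-hyphen library of day 0, and -0.41 with title style as a covariate. In KO it was -0.38 without the double-hyphen library of day 0 and -0.92 without day 3 replicate 3. Without all double-hyphen libraries the medians were -0.18 and -0.35. Under both labels 12 members were called in the same direction, where 35.7% of all genes were. They made up 60.0% of the WT and 66.7% of the KO calls among members, while over all genes the shared calls made up 71.2% and 84.1%. The 12 were Cxcl16, Fam20c, Kcnk13, Lilrb4a, Ly9, Mag, Mmp19, Naip2, Pirb, Prdx1, Slamf7 and Slamf8. In bulk RNA, fewer cells that express a gene and less RNA of it per cell cannot be told apart.

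Among the members called, Slamf8 fell most under both labels, by a log2 fold change of -3.34 ± 0.84 (SE) in WT with an adjusted p of 0.00482 and of -2.48 ± 0.79 in KO with an adjusted p of 0.0215. Without the double-hyphen WT library of day 0 the WT change was -1.84, with an adjusted p of 0.0507, and without the double-hyphen KO library of day 0 the KO change was -2.09, with an adjusted p of 0.0716. Slamf7 fell in WT (-2.61 ± 0.64, adjusted p = 0.00403), and its KO call (-1.67 ± 0.62, adjusted p = 0.0417) was lost with the replicate number as a block within each label (-1.65, adjusted p = 0.0617). Slc15a3, a lysosomal peptide transporter, fell in WT (-1.87 ± 0.53, adjusted p = 0.00901) and C3 fell in KO (-1.85 ± 0.51, adjusted p = 0.00959). The only members called higher with all libraries were the arginine pair, Gm5424 in WT (1.69 ± 0.49, adjusted p = 0.0107) and Ass1 in KO (1.84 ± 0.57, adjusted p = 0.0194). By the means of these genes, day 1 was thus above a day 3 level that was itself above day 0. The double-hyphen WT library of day 1 did not follow this. Its Ass1 (2.31 CPM) lay below the WT libraries of day 3 (3.30 to 3.87), and its Gm5424 (4.27) within their range (3.775 to 6.82). KO day 1 replicate 2, also double-hyphen, lay within the KO range of day 3 in both genes (3.54 and 4.93 CPM). Several KO calls rested on single libraries. Slamf8 also lost its KO call without KO day 3 replicate 1 (adjusted p = 0.0567) or 2 (0.0807), and Slamf7 without any 1 KO library of days 0 and 3 except day 3 replicate 3 (-1.35 to -1.77, adjusted p from 0.0597 to 0.145). C3 lost it without KO day 0 replicate 3 (-1.30, adjusted p = 0.0602), and Ass1 without KO day 0 replicate 1 (1.75, 0.0603) or 2 (1.65, 0.0706) or day 3 replicate 3 (1.68, 0.0535). The KO count was 4 without the double-hyphen KO library of day 0 (Cxcl16, Pirb, C3 and Naip2), 9 without KO day 3 replicate 1 and 7 without KO day 3 replicate 2, and the WT count was 13 without WT day 3 replicate 3. Adjusting for title style gave 29 called in WT, 6 of them higher, and 23 in KO, 3 of them higher.

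**Figure D5:**
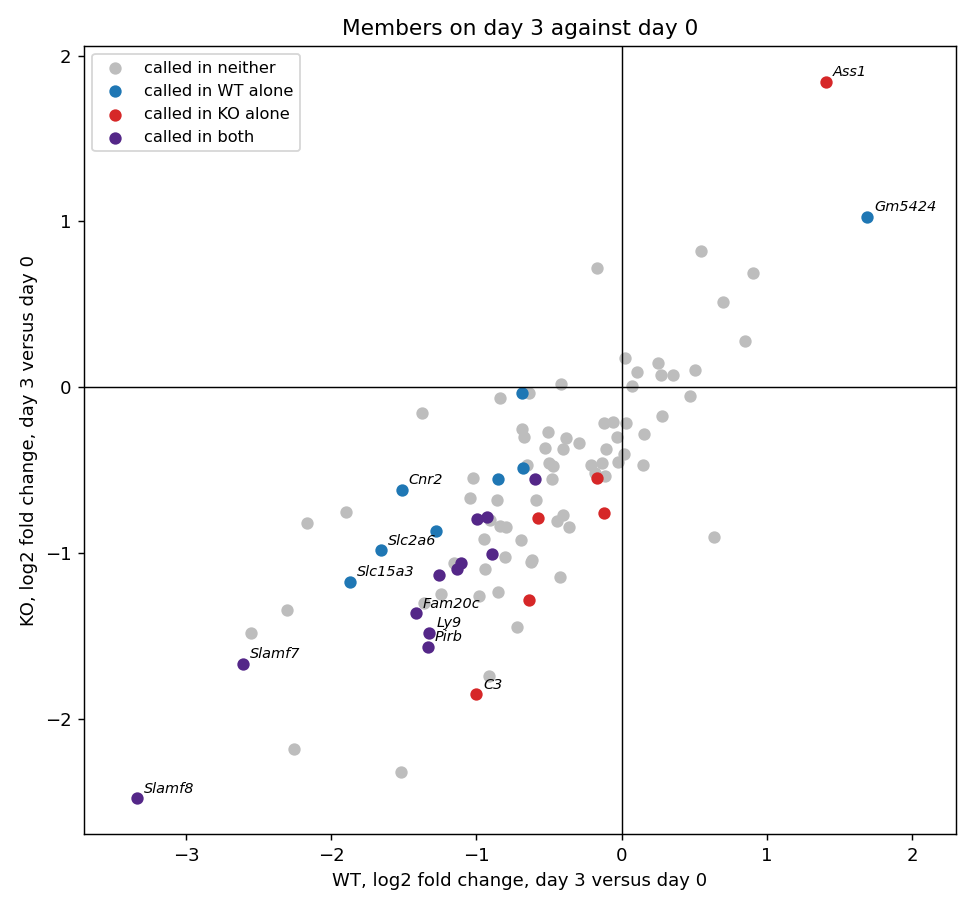
Log2 fold change of each member from day 0 to day 3 in WT (horizontal) and KO (vertical), coloured by the label in which it was called at an adjusted p under 0.05. Most points lie in the lower left of the plot, with Slamf8 and Slamf7 the farthest of the members called. The arginine genes Gm5424 and Ass1 lie in the upper right.

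Between the labels no member was called on day 0, day 1 or day 3, where 0.119%, 0.112% and 0.14% of all genes were called. Without WT day 0 replicate 3, 1 member was called on day 0 (Grem1, a secreted antagonist of bone morphogenetic proteins). Unadjusted p was under 0.05 in 2, 3 and 4 members. DESeq2 called 0 members on each day, with 3, 3 and 5 at an unadjusted p under 0.05. On day 0 the 2 were C3 (1.09 ± 0.50, KO minus WT, log2) and Fgr, a Src-family kinase (1.46 ± 0.49). On day 1 they were Nqo1 (-0.93 ± 0.34), Ptgr1 (-0.65 ± 0.20) and Pik3r5, a regulator of phosphoinositide kinase (-0.65 ± 0.29). The Nqo1 means on day 1 were 35.9 ± 16.1 CPM in WT and 18.4 ± 6.24 in KO (SD, n = 3), and the adjusted p was 0.563. On day 3 they were Slc2a6 (0.98 ± 0.44), Tmem176b (0.82 ± 0.27), Cnr2 (1.17 ± 0.35) and Pik3r5 (-0.63 ± 0.29). The median difference over the members was 0.21 on day 0, 0.04 on day 1 and 0.09 on day 3, and 0.02, -0.02 and 0.02 over all genes. Leaving out 1 library moved these medians across 0 on every day. On day 0 they ran from -0.05 (without KO replicate 2) to 0.53 (without WT replicate 1), on day 1 from -0.08 (without the single-hyphen WT replicate 1) to 0.33 (without the double-hyphen WT library), and on day 3 from -0.10 (without KO replicate 3) to 0.24 (without KO replicate 2). Without all double-hyphen libraries 0 members were called on any day, with 11, 14 and 8 at an unadjusted p under 0.05. The test of whether the change from day 0 to day 3 differed between labels called 0 of 14241 genes (0%) and 0 members, with 0 members at an unadjusted p under 0.05. DESeq2 likewise called 0 members there and had 1 at an unadjusted p under 0.05, and the fit without the double-hyphen libraries called 0 and had 5.

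Of the other pathway lists few held a member, and at the share of all genes past the minimum (0.995%) a list of this size would hold fewer than 1, so an absence is no result. Of the NF-kB subunits and feedback genes 1 of 16 past the minimum was a member (Icam1), of chemokines and cytokines 1 of 14 (Cxcl16), and of AP-1 and immediate early, interferon, ribosome biogenesis, DNA replication, mitosis, cholesterol, glycolysis and hypoxia, heat shock and osteoclast genes none. The median score of the 13 osteoclast genes past the minimum was -2.71, their summed level being 1856 to 2638 CPM on day 0, 2368 to 2716 on day 1 and 11156 to 32060 on day 3. Scores above 0 were found in 6 of 13 lipid genes, 5 of 16 NF-kB genes and 4 of 13 redox genes, against 6.98% of all genes past the minimum on the same scale. They were found in 2 of 14 chemokine and cytokine genes, 2 of 16 amino acid genes, 2 of 20 DNA replication genes, 2 of 21 cholesterol genes, 2 of 21 interferon genes and 1 of 12 AP-1 and immediate early genes. None of the 24 ribosome biogenesis, 22 mitosis, 20 glycolysis and hypoxia, 14 heat shock and 13 osteoclast genes had one. These shares were not tested.

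Marker genes of other cells were read in the same way. The defining macrophage genes were present in all libraries, Csf1r at 1347 to 6795 CPM, and the sum of the macrophage list was 36421 to 58379 CPM on day 0, 41260 to 57264 on day 1 and 8710 to 22255 on day 3. No gene of the macrophage list was a member, while Mmp12, the macrophage elastase, was a member and is not on that list. The stromal and osteoblast sum was 124 to 5174 CPM on day 0, 315 to 11130 on day 1 and 16339 to 40108 on day 3, the neutrophil sum 740 to 13013, 440 to 3804 and 51.4 to 1437, and neither list had a member. These sums move with the fall of members to day 3, and their part in it was not tested. The dendritic cell list, with 3 of 10 genes past the minimum, gave Itgax, while H2-Ab1 (score -1.47) and Cd74 (-1.01), also past it, scored below 0. The sum of the list was 175 to 1253 CPM on day 0, 262 to 655 on day 1 and 46.9 to 276 on day 3. The lists of B cells, mast cells, basophils or eosinophils, endothelium and megakaryocytes had 3, 1, 2 and 2 genes past the minimum and no member, and the erythroid list had none past it. Alas2 and Slc4a1, which define red cells, were at 0 in all 18 libraries.

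RefSeq promoter windows were matched for 74 members, while 26 had no entry. The AP-1 motif TGANTCA was found on either strand in 14 of the 74 (18.9%, against 8.97% of all genes with a window), among them Mmp12, Itgax, Slamf7, Slamf8, Gpnmb, Procr, Srxn1 and Prdx1. The kB motif GGANTTTCC was found in 4 (Ampd3, Icam1, Slamf8 and Syt8, 5.41% against 1.45%) and the STAT motif TTCNNNGAA in 12 (16.2% against 9.55%). The antioxidant element TGACNNNGC was found in 11 (14.9% against 13.99%), and 2 of its 12 matches contain an AP-1 match. The NFAT motif GGAAAA was found in 21.6% against 26.1%. The TATA box, searched as TATAAA, was found in 16.2% against 15.7%. The E-box CACGTG gave 8.11% against 8.09%, and the interferon element GAAANNGAA gave 8.11% against 9.76%. The ATF4 composite TGATGNAAN gave 4.05% against 4.496%, and CRE, TGACGTCA, gave 2.70% against 2.03%. For E2F, TTTGGCGC, the shares were 0% and 0.585%. These shares describe 300-base windows of the reference and were not tested. The 27025 genes with a window were not held to the minimum of 5 CPM that the members had passed. A gene was counted if any of its windows matched, with 99 windows for the 74 members and 32851 for all genes. The shares are therefore not like for like.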

How the data were processed

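Total RNA of 18 BMDM samples was isolated with an RNeasy kit and made into libraries with a SMARTer mRNA kit, per the labels. The authors deposited whole-number counts per gene and FPKM values in 1 table. StringTie and the builds GRCm38.p4 and mm10 are named in the submitters' processing notes, and the aligner, the counter and its strand setting are not given in the sources used here. Every column belonged to a sample (0 left over).

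CPM used the column sum as the library total, while edgeR 4.0.16 (R 4.3.3) used trimmed-mean scaling, its own expression filter and quasi-likelihood tests over all 18 libraries in 6 groups, with Benjamini-Hochberg adjustment over 14241 genes and a threshold of 0.05. Title style entered as a term only where named. DESeq2 1.42.0 was an alternative. The fits were tested on simulated data. Levels and scores are on column-sum CPM and folds on edgeR's TMM scale, and counts above or below 0 differ between these scales. Nothing says that replicates were separate mice or cultures, so p-values measure the spread between these libraries, which may be technical.

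The members and all lists were chosen with earlier results of these data known. Genes named by rule were the 20 highest scores, those at the edge of the rule, the largest changes from day 0 to day 3 and with title style, members of the lists, and Zmat1. All other genes named were chosen after their values were seen, and 1 member, though counted, is not reported here by name. Deviations of same-numbered KO libraries correlated above 0.1 in each pair of days 0 and 3 (0.113, 0.138 and 0.411) and of days 1 and 3 (0.226, 0.183 and 0.357), which was the criterion for a block, but libraries of other numbers reached 0.152 and 0.187 on the same days, so the pairing is a hint from the data. In WT it was not met (0.118, 0.008 and 0.064 for days 0 and 3). Alternatives were other scalings, filters, pseudocounts, minimums and tools, title style as a covariate, the replicate number as a block and leaving out libraries.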

Additional observations from a re-analysis of the deposited data

How the results depend on the processing

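Of the counts and member lists, 133 values under alternatives stayed within 1.5 times the reported value and 7 did not. The 133 include counts of 0 that stayed at 0, mainly those between the labels, so the tally is no measure of how firm the other counts are. Members among the 100 highest scores numbered 66 to 99 when 1 library was left out, 66 of them without the double-hyphen WT library of day 1, and 52 without all 5 double-hyphen libraries. Leaving out 1 library gave 0 to 1 members called between the labels on day 0 (1, Grem1, without WT replicate 3) and 0 on days 1 and 3, 13 to 28 called between days 3 and 0 in WT (13 without WT day 3 replicate 3), 4 to 24 in KO (4 without KO day 0 replicate 2, 9 without KO day 3 replicate 1 and 7 without KO day 3 replicate 2), 36 to 53 called with title style and 0 for the difference of the changes between labels. With a replicate block 22 members were called from day 0 to day 3 in WT and 17 in KO, 0 between the labels and 40 with title style, and with the replicate block within each label 26 and 17. Apart from Slamf7 in KO, the within-label block changed no call of a gene named by rule for that comparison. The score of mt-Atp6 turned to -0.52 with medians in place of means and to -0.54 without the double-hyphen libraries or without the WT one of day 1 alone. Anpep turned to -0.089 and -0.64 in the latter cases, and F10 to -1.21 without the WT one. Without all double-hyphen libraries Slamf7 lost its KO call (-1.35, adjusted p = 0.0821) and no other gene named by rule for day 3 against day 0 did. This fit was added after the data were seen. Of values for single genes, 719 were the same, 19 moved by more than the spread, 16 lost their call and 6 reversed, and causes were not tested. Members near the 5 CPM minimum, such as Ceacam19, Eef1a2 and Ass1, rest on few counts.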

Other observations

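Genes of the lists whose score was above 0 without reaching the 100 highest came from the same classes as members. They included Birc3 (0.26) and Relb (0.19) of the NF-kB list, Nr1h3 (0.25) and Msr1 (0.20) of the lipid list, and the macrophage marker Cd68 (0.18). The highest of these stood below the last member, Vat1, at 0.35.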
